A study of Mus musculus with 16 samples.

Results

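MicroRNAs of the fetal mouse adrenal were compared between Dicer knockout and control embryos at embryonic day E15.5, in 8 of the 16 samples of the series. Every group was on the C57BL/6 strain. The 4 knockout (KO) samples carried the genotype Sf1-Cre/Dicer lox/lox. The 4 control (WT) samples came from littermates without Cre. These litters came from crosses of Sf1-Cre/Dicer lox/lox, Sf1-Cre/Dicer +/lox and Dicer lox/lox mice, so a control embryo can carry floxed Dicer alleles too. The same 2 genotypes at E16.5, 4 samples each, are used below only where an E15.5 result is set beside them. Adrenals were pooled by genotype within a litter, so a sample is a pool. The labels number the samples 1 to 4 in each group and do not say whether a number marks a litter.

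The Sf1 promoter drives Cre in steroidogenic cells, so chromaffin, endothelial, blood and mesenchymal cells of the gland were not the target of the deletion. In such pools a loss of miRNA per cell and a loss of cells cannot be told apart. Neither Dicer nor any messenger RNA was measured on these panels, so the deletion and the steroidogenic identity of the tissue could not be checked against their own transcripts.

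The values are threshold cycles (Ct) from real-time PCR. The level of a miRNA is the mean Ct of 5 small RNA controls (U6, snoRNA135, snoRNA202, U87 and Y1), none of which needs Dicer, minus the Ct of the assay. It is a log2 scale on which 1 unit stands for about a doubling of template. Wells with no Ct, or one later than 28, were taken as undetected and given the limit of 28. Of 741 miRNA names on the panel, 326 were detected in at least 3 samples of either E15.5 group and are the members described here. Of these, 289 passed the detection rule in both groups, 30 in WT samples only and 7 in KO samples only. A member that passed through WT samples alone was bound to look lower in KO. In all 8 samples 241 members were detected.

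Dicer is the cytoplasmic RNase that cuts a hairpin precursor into a duplex of about miRNA length. A strand of the duplex is loaded into an Argonaute protein and finds its messenger RNA targets mainly through its seed, bases 2 to 8 from the 5′ end. Most miRNAs need first Drosha and then Dicer. A few hairpins reach Dicer without Drosha, and miR-451 is cut by Argonaute 2 in place of Dicer. A miRNA already loaded into Argonaute can last for days after its processing stops. The let-7 family is known for accumulating as embryonic tissues differentiate, and the miR-34 genes are targets of the p53 family.

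The seed shared by let-7 and miR-98 held more called assays than any other seed that at least 3 tested assays shared. It also had the most tested assays, 9, of which 8 were called lower (88.9%, against 12.6% of all tested assays). Of these, miR-98 passed the detection rule through WT samples only. The mature sequences below are those of RefSeq on build GRCm38.p6, which named 233 of the 326 members. They are written 5′ to 3′ with the seed in capitals, and show how few bases separate the assays of this seed.
let-7a: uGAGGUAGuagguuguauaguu
let-7b: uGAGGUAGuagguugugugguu
let-7c: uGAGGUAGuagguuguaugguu
let-7d: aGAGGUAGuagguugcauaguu
let-7e: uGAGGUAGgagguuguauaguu
let-7f: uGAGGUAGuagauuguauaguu
let-7g: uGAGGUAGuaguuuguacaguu
let-7i: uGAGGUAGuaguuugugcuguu
miR-98: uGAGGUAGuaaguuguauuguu
Each is 22 bases long. Counted over the whole length, let-7c, let-7e and let-7f differ from let-7a at 1 base, let-7b, let-7d, let-7g and miR-98 at 2, and let-7i at 4. PCR assays for such close relatives can read one another, so the let-7 assays are not independent measurements.

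Of all assays tested, members or not, 43 fell in KO adrenals at E15.5 and 0 rose (limma, adjusted p under 0.05), which is 12.6% lower and 0% higher. At an unadjusted p under 0.05, 109 lay lower and 1 higher. All 43 were members. Below 0 lay 269 of the 326 members (82.5%), with a median log2 change of -0.68. All 4 KO samples lay below all 4 WT samples for 64 tested assays (18.8%), and above them for 1 (0.293%). Of the 43 called assays, 41 were separated in this way and 35 were detected in all 8 samples.

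KO samples 3 and 4 stood lower than KO samples 1 and 2 over most of the panel. The median level of the tested assays was -5.50, -5.63, -5.85 and -5.90 in WT samples 1 to 4, and -5.89, -5.57, -7.03 and -7.01 in KO samples 1 to 4. On this measure only KO samples 3 and 4 lay outside the range of the controls. The difference of -0.65 did not exceed the spread between samples (two-sided exact permutation test, p = 0.229, with 0.0286 the smallest that 4 against 4 allows). Over the assays detected in all 8 samples the medians were -4.02, -4.21, -3.80 and -3.96 in WT and -4.46, -4.07, -5.37 and -5.32 in KO. There KO sample 1 lay below the controls too, and the difference was -0.81 (two-sided exact permutation test, p = 0.0571). Between 310 and 347 assays were detected per WT sample, and 326, 311 and 267 in KO samples 2, 3 and 4, of which only KO sample 4 lay below the WT range (two-sided exact permutation test, p = 0.171). WT samples had a control mean Ct of 16.96 ± 0.59 and KO samples one of 17.05 ± 0.56 (SD, n = 4). Over 12 such sample measures the smallest Benjamini-Hochberg adjusted p was 0.257. Left without KO samples 3 and 4, the same fit called 7 assays in place of 43, and without WT samples 3 and 4 it called 11.

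All 43 called assays nevertheless lay below the WT mean in each of the 4 KO samples. Their median distance from the WT mean was -1.28 in KO sample 1, -1.01 in KO sample 2, -2.43 in KO sample 3 and -2.36 in KO sample 4. Over all tested assays the same medians were -0.34, 0.12, -1.28 and -1.18. In KO sample 2, where the panel as a whole lay slightly above the controls, the called assay closest to its WT mean was 0.16 below it. The 43 were chosen as the ones that differ, so these distances describe them and test nothing.

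**Figure D1:**
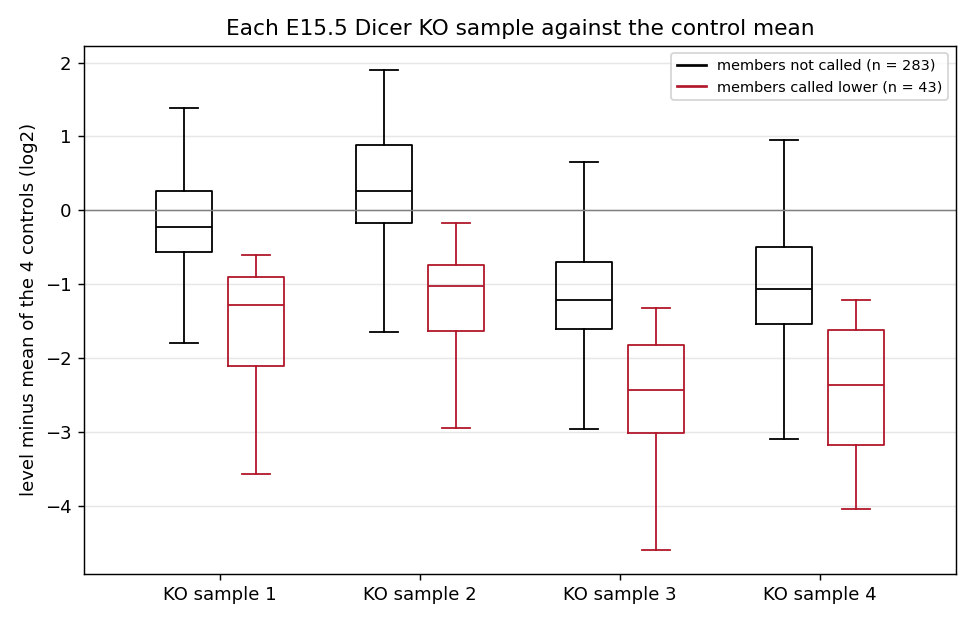
Box plots of the level of each member in a KO sample minus its mean over the 4 WT samples (log2, vertical axis), for the 283 members that were not called (black) and the 43 called lower (red). Boxes span the quartiles, the line is the median and whiskers reach the last value within 1.5 box lengths. KO samples 3 and 4 sit lower for both sets of assays, and the called set has medians of -1.28, -1.01, -2.43 and -2.36.

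Each panel reads its assays on 16 sub-arrays that fall into 2 sets with their own control wells, and the sets did not have the same control Ct. The gap, set 2 minus set 1, was 0.58, 0.41, 1.69 and 2.10 cycles in WT samples 1 to 4 and 0.50, 0.28, 0.35 and 0.49 in KO samples 1 to 4. WT samples 3 and 4 stood above all the others (two-sided exact permutation test of KO against WT, p = 0.0857). Assays of set 1 made up 40 of the 43 calls and those of set 2 made up 2, with miR-292-3p read in both. The median change was -0.91 over the members of set 1 and -0.14 over the 100 of set 2. Scaled to the control wells of its own set, each came to about the same value, -0.51 and -0.53, and 27 assays passed (7.92% of those tested), 20 of set 1, 6 of set 2 and 1 in both. Of the 43 calls 23 were among those 27. The other 4 were miR-30e-3p, miR-362-5p, miR-674# and miR-877#, all of set 2 (# marks the minor arm of a hairpin).

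**Figure D2:**
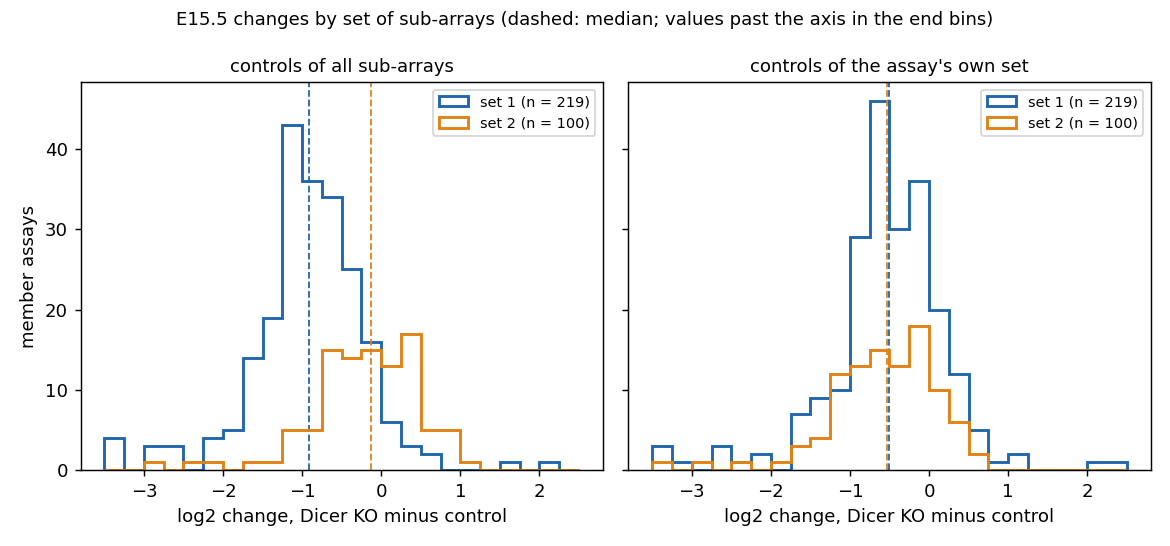
Histograms of the log2 change (KO minus WT, horizontal axis) over members of set 1 (blue) and set 2 (orange, n = 100), in bins of 0.25, with the controls of all sub-arrays (left) and of the assay's own set (right). Dashed lines are medians, which lie at -0.91 and -0.14 on the left and at -0.51 and -0.53 on the right.

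MicroRNAs that the panel reads with more than 1 assay show the same offset. Among the members, 12 mature miRNAs had more than 1 assay, giving 8 pairs of assays split between the sets and 6 within a set. With the common controls the 2 assays of a split pair differed by a median of 0.73 on the log2 scale (0.44 to 1.23). With own-set controls they differed by 0.15 (0.03 to 0.44), less in 8 of 8 pairs. Within a set the median was 0.27 either way. For miR-10b, for example, the human-named assay in set 1 changed by -0.76 and the mouse-named assay in set 2 by 0.21, against -0.36 and -0.19 with own-set controls. For this reason own-set values are given below for the assays described singly.

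Of the 10 tested let-7 family assays 8 fell, against 12.6% of all tested assays and 17.9% of those in set 1. The median change was -1.46, against -0.62 over all tested assays and -0.89 over those in set 1. All 9 that carry the shared seed are members and lie in set 1. miR-98 was the extreme. Its Ct was 20.96, 21.17, 22.83 and 19.78 in WT samples 1 to 4, and no KO well gave a Ct. With KO wells at the limit the log2 change was -6.72 (limma adjusted p = 3.45e-09), or -6.33 with own-set controls and -5.94 with the miRNA median as reference. Each is a bound under its scaling, since the KO level can lie lower than the limit. The assay passed the detection rule through WT samples only, so it was bound to look lower. Neither its p, its place in the count of 8 nor its passing in all 23 alternative fits that could test it supports a change. miR-98 lies near let-7f-2 on chromosome X. miR-98 is found at chrX:151913229-151913250 and let-7f-2 at chrX:151912353-151912374, both on the plus strand. Yet the let-7f assay, which also reads the copy let-7f-1, was not called, as given next.

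let-7d had levels of -1.65, -1.80, -0.84 and -0.72 in WT samples 1 to 4 and -2.63, -2.60, -4.15 and -3.84 in KO samples 1 to 4. The groups did not overlap, and the mean was 4.14-fold lower in KO (log2 change -2.05, SE 0.42, limma adjusted p = 0.00502), with a change of -1.65 on own-set controls. let-7a, 1 copy of which lies with let-7d and let-7f-1 on chromosome 13, had -1.55, -1.41, -0.52 and -0.34 in WT and -1.96, -1.80, -3.20 and -2.87 in KO. Here the distance between the lowest WT and the highest KO sample was small, and the change was -1.50 (SE 0.40, limma adjusted p = 0.0236), or -1.11 with own-set controls. let-7f had -4.90, -5.10, -3.96 and -4.06 in WT and -5.58, -4.88, -6.59 and -5.96 in KO. KO sample 2 overlapped the controls, and the change of -1.25 (SE 0.41) missed the threshold (limma adjusted p = 0.0518), and was -0.85 with own-set controls. let-7b, let-7c, let-7e, let-7g and let-7i fell by 1.25 to 1.69 on the log2 scale. let-7a#, the opposite strand of the let-7a duplex, is no member and changed by -0.19, or -0.58 with own-set controls.

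The let-7 calls other than miR-98 depend on scaling and on samples. In all 8 let-7 letters the highest WT levels were in samples 3 and 4, the ones with the wide gap between sets. With own-set controls the median change of the list was -1.06, against -0.48 over all tested assays and -0.50 over those in set 1. With these controls 6 of 10 passed, against 7.92% of all tested (let-7b at a limma adjusted p of 0.0514 and let-7e at 0.0844 did not). With the sample number as a block 2 passed, let-7d (limma adjusted p = 0.0326) and miR-98. Without KO samples 3 and 4, or without WT samples 3 and 4, miR-98 alone of the family passed limma's threshold.

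**Figure D3:**
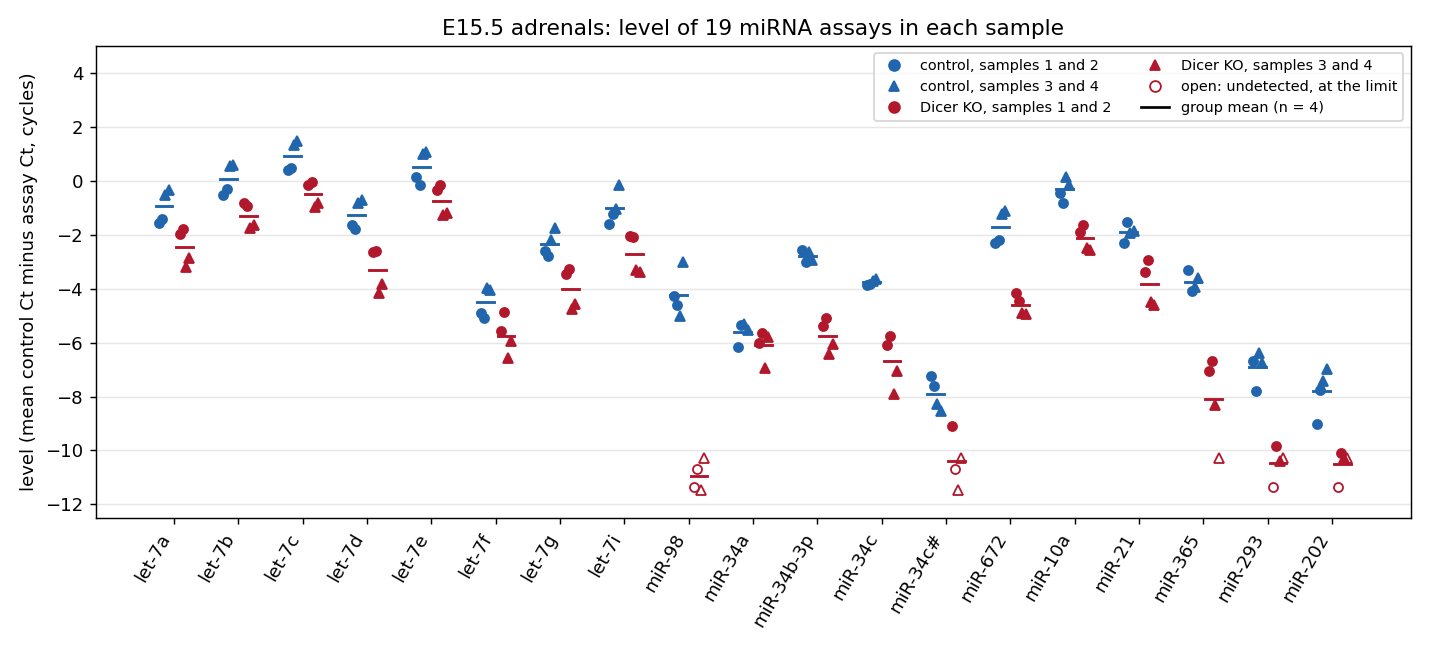
Level of 19 miRNA assays in each of the 8 samples (vertical axis, control mean Ct minus assay Ct, in cycles), blue for WT and red for KO. Circles are samples 1 and 2, triangles samples 3 and 4, open symbols are undetected and drawn at the limit, and lines are means of 4. For miR-98 all KO samples are open, and for miR-34b-3p, miR-34c and miR-672 the groups lie far apart, while let-7f and miR-34a overlap.

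In the miR-34 family 3 of 5 tested assays fell, against 12.6% of all tested. Of the 5, miR-34c# and miR-34b-5p passed the detection rule through WT samples only, so they were bound to look lower, and the count supports nothing about the family. The gene pair Mir34b and Mir34c lies on the minus strand of chromosome 9, with miR-34b-3p at chr9:51103574-51103595 and miR-34c-3p (assay miR-34c#) at chr9:51103044-51103065. These 3p arms share a seed, and miR-34a and miR-34b-5p share another. The sequences show these 2 seeds. The calls cannot be read by seed, because the called miR-34c assay is not among these sequences. miR-34c# also passed the detection rule through WT samples only.
miR-34b-3p: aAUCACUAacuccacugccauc
miR-34c#: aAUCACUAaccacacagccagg
miR-34a: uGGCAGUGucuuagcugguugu
miR-34b-5p: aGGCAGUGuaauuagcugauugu
The assay named miR-34c, also called, is given below by name only.

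miR-34b-3p had levels of -2.58, -2.65 and -2.95 in WT samples 1, 3 and 4, with WT sample 2 just below them, and -5.40, -5.10, -6.44 and -6.07 in KO samples 1 to 4. miR-34c had -3.87, -3.81, -3.70 and -3.63 in WT and -6.08, -5.77, -7.90 and -7.05 in KO. The WT samples were tight (SD 0.21 and 0.11, n = 4), and no KO sample came near the lowest of them. The changes were -2.96 (SE 0.35, limma adjusted p = 2.02e-05) and -2.95 (SE 0.44, limma adjusted p = 0.00021), or -2.56 and -2.55 with own-set controls. miR-34c# had -7.24, -7.62, -8.29 and -8.54 in WT, and 3 of its 4 KO samples were undetected. Its change was -2.46 (SE 0.58, limma adjusted p = 0.012) in set 2 and -2.86 with own-set controls.

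miR-34b-3p and miR-34c passed in all 25 alternative fits, while miR-34c# missed the threshold in 5 of the 24 that could test it. Without KO samples 3 and 4, miR-34b-3p and miR-34c still stood at -2.45 and -2.17. In no-template wells miR-34b-3p gave Ct 28.76 and 27.55, later than its latest E15.5 sample at 23.78. The other two assays were not called. miR-34a, made from its own gene on chromosome 4, changed by -0.51 (SE 0.42, limma adjusted p = 0.419), or by -0.11 with own-set controls, with KO sample 3 lowest and the groups overlapping. miR-34b-5p, close to the detection limit, lies in set 2 and changed by -0.66 (SE 0.51, limma adjusted p = 0.384), or by -1.06 with own-set controls.

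Beside miR-34b-3p, miR-34c and miR-98, 3 further assays passed in every alternative that could test them: miR-672, miR-365 and miR-293. For miR-98 and miR-293, which passed the detection rule through WT samples only, this supports nothing. miR-672 had levels of -2.30, -2.18, -1.22 and -1.11 in WT samples 1 to 4 and -4.17, -4.47, -4.90 and -4.94 in KO samples 1 to 4. Its KO samples varied little (SD 0.37, n = 4), with samples 3 and 4 only slightly below the others. Its change was -2.92 (SE 0.35, limma adjusted p = 2.02e-05), or -2.52 with own-set controls. The miRNA comes from chrX:104116228-104116250.

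miR-365 had -3.31, -4.09, -3.93 and -3.61 in WT and -7.06, -6.67, -8.33 and -10.29 in KO, the last being the detection limit. The change was -4.35 (SE 0.57, limma adjusted p = 5.17e-05), or -3.96 with own-set controls. Its 2 hairpins lie beside miR-193b on chromosome 16 and downstream of miR-193a on chromosome 11, and assays of both neighbours fell as well. miR-193b changed by -1.61 (SE 0.38, limma adjusted p = 0.0117; 0.0599 with the sample number as a block), or by -1.21 with own-set controls. miR-193#, the 5p arm of miR-193a, had -5.31, -5.39, -6.22 and -5.84 in WT and -9.00, -6.98, -9.11 and -9.18 in KO. KO sample 2 stood between the controls and the other KO samples, and the change was -2.88 (SE 0.52, limma adjusted p = 0.00149). It was the largest fall among the set 2 assays called, and -3.27 with own-set controls.

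The miR-290 cluster is best known from pluripotent and germ line cells. It had 3 tested assays, all of them members, of which 2 fell. miR-293 and miR-295 passed the detection rule through WT samples only and were bound to look lower, so neither the count nor their p supports a change of the cluster. miR-293 had -6.67, -7.81, -6.37 and -6.74 in WT and -11.36, -9.84, -10.41 and -10.29 in KO, where samples 1 and 4 were undetected. The change was -3.57 (SE 0.43, limma adjusted p = 2.02e-05), or -3.18 with own-set controls. miR-292-3p changed by -1.97 (SE 0.58, limma adjusted p = 0.034), with KO values of -10.15, -9.23, -10.31 and -9.00 against a WT range of -8.38 to -6.80, and by as much with own-set controls, being read in both sets. miR-295 was detected in WT samples 1 to 3 and in no KO sample, and its change of -1.38, or -0.98 with own-set controls, was not called (limma adjusted p = 0.0722).

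Of the 10 tested assays listed for cAMP and steroidogenic cells 2 fell, against 12.6% of all tested, too few to set the list apart. miR-202, known from Sertoli and other gonadal somatic cells, had -9.01, -7.77, -7.43 and -6.97 in WT and -11.36, -10.10, -10.28 and -10.29 in KO, with 2 KO samples undetected. The change was -2.71 (SE 0.45, limma adjusted p = 0.00061), or -2.32 with own-set controls, and the assay passed the detection rule through WT samples only. miR-21, abundant in many tissues, had -2.31, -1.53, -1.93 and -1.87 in WT and -3.37, -2.93, -4.49 and -4.59 in KO, a change of -1.93 (SE 0.43, limma adjusted p = 0.00871), or -1.53 with own-set controls. The hormone-responsive pair miR-132 and miR-212 changed by -0.62 and 0.47 (limma adjusted p = 0.217 and 0.401), and by -0.23 and 0.07 with own-set controls. With the miRNA median as reference miR-212 and the human-named miR-214 assay of this list were called higher, and the mouse-named miR-214 assay was not. The list median was -0.35.

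The seeds of miR-202 and miR-672 begin with the same letters as that of let-7, as these sequences show.
miR-202: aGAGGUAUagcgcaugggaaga
miR-672: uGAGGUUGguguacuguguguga
let-7a: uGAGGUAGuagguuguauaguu
The first letters of the seed, GAGGU, are common to the 3. Beyond the seed the sequences differ, and this likeness was seen after the values were known.

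For miR-103 and miR-107, and for miR-10a and miR-10b, members that differ by 1 base had unlike changes.
miR-103: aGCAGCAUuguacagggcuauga
miR-107: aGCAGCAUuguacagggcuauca
miR-10a: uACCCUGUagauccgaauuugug
hsa-miR-10b: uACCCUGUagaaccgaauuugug
miR-107 had -6.52, -6.75, -5.35 and -6.38 in WT and -7.67, -8.35, -8.73 and -10.29 in KO, with KO sample 4 undetected, a change of -2.51 (SE 0.50, limma adjusted p = 0.00401), or -2.12 with own-set controls. miR-103 changed by -0.97 (SE 0.34, limma adjusted p = 0.0667), or -0.57 with own-set controls, with KO sample 2 at -3.73 inside the WT range of -3.87 to -2.90. miR-10a, encoded in a Hox cluster, had -0.45, -0.84, 0.15 and -0.15 in WT and -1.89, -1.64, -2.48 and -2.55 in KO, a change of -1.82 (SE 0.34, limma adjusted p = 0.00213), or -1.42 with own-set controls. miR-10b, of another Hox cluster, changed by -0.76 (SE 0.41, limma adjusted p = 0.217), or -0.36 with own-set controls, with KO samples 1 and 2 inside the WT range. All 4 assays are in set 1, so the offset between sets does not enter, but the difference between the members of a pair was not tested. Over all 15 pairs of member assays that differ by 1 base, the smallest gap between the changes was 0.00, for miR-19a and miR-19b. Which pair had the widest gap depended on the scaling, and either way its assays lay in different sets. miR-10a and the mouse-named miR-10b assay of set 2 changed by -1.82 and 0.21, or by -1.42 and -0.19 with own-set controls. With own-set controls the widest was another: miR-196a of set 2 and miR-196b of set 1 changed by -0.75 and 0.30, or by -1.15 and 0.70 with own-set controls.

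Some hairpins were read on both arms. Among pairs of member assays from a hairpin, the gap between the changes of the arms had a median of 0.92 in the 32 pairs split between sets and 0.46 in the 16 pairs within a set. With own-set controls these medians were 0.38 and 0.46. The widest gap was that of miR-674, whose 5p arm had -4.30, -5.26, -4.14 and -3.95 in WT and -11.36, -5.33, -11.46 and -10.29 in KO. The 3 low KO values are at the limit, with wells that crossed at 28.89, 29.76 and 30.88, while KO sample 2, at Ct 22.64, was only just below the controls. The change of -5.20 (SE 1.36, limma adjusted p = 0.0225), or -4.80 with own-set controls, therefore stands for samples that disagree, and it passed in 14 of the 24 alternatives that could test it. This 5p assay passed the detection rule through WT samples only and was bound to look lower. The 3p arm, miR-674#, changed by -1.15 (SE 0.51, limma adjusted p = 0.126), or -1.54 with own-set controls (limma adjusted p = 0.0482).

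Among the called assays, further falls of 2 or more on the log2 scale were those of miR-182, miR-501#, miR-135b and miR-669a. miR-182 belongs to a cluster typical of sensory and neural cells and changed by -2.51 (SE 0.56, limma adjusted p = 0.00894), or by -2.11 with own-set controls. Its WT levels lay between -5.94 and -4.76, and its KO levels were -6.90, -7.09, -8.66 and -9.51, lowest in samples 3 and 4. miR-501# and miR-135b both changed by -2.13 (limma adjusted p = 0.00894 and 0.0177), or -1.74 with own-set controls, the latter not passing with own-set controls (adjusted p = 0.0514). miR-669a, of the Sfmbt2 intron cluster, gave a Ct under 28 in each WT sample but not in KO. It lay close to the limit in WT and passed the detection rule there only. With all KO samples at the limit the change was -2.08 (limma adjusted p = 0.0406), or -1.69 with own-set controls, and it passed neither with these nor with the sample number as a block (0.0599 in each).

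**Figure D4:**
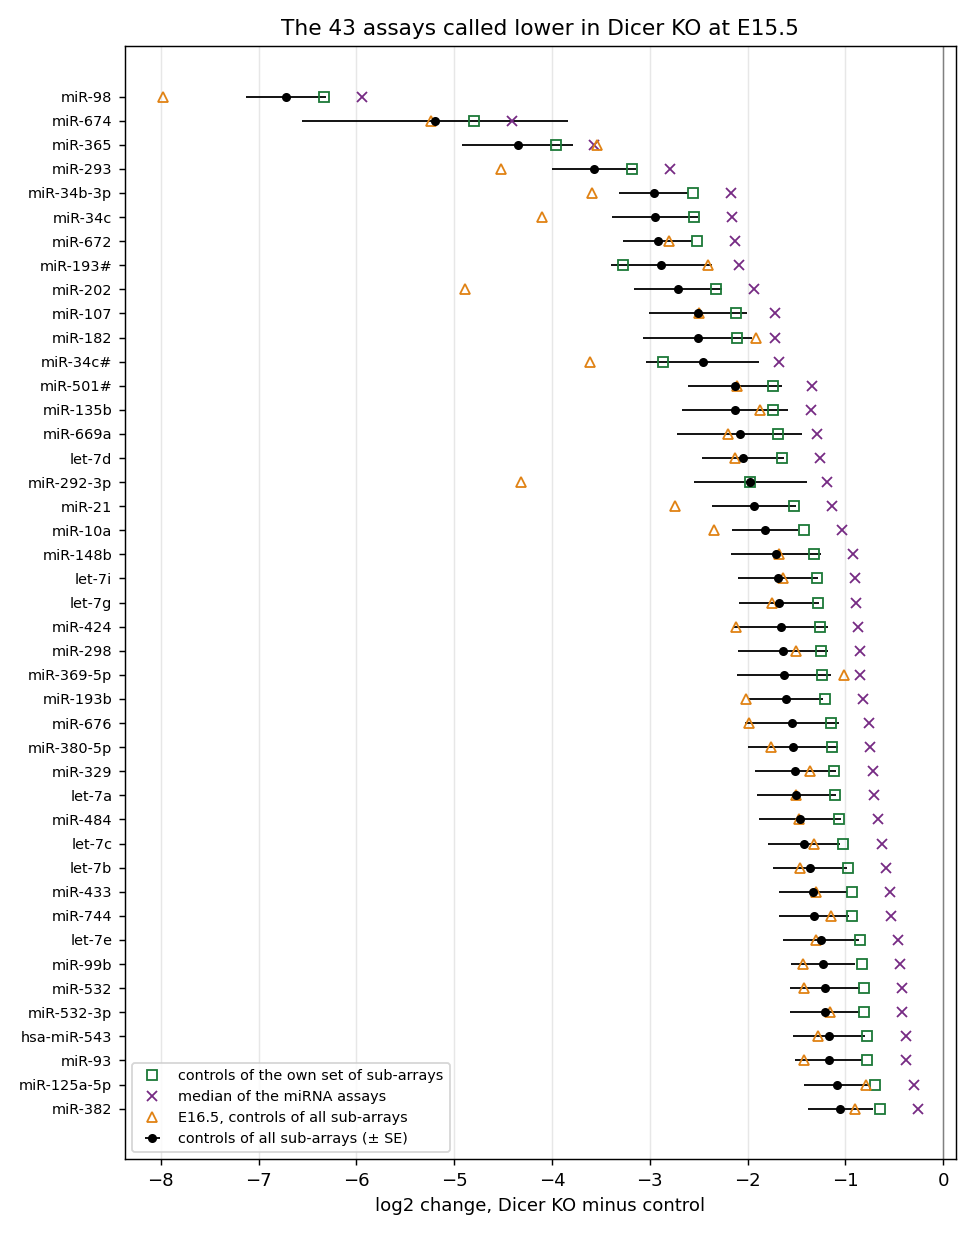
Log2 change (KO minus WT, horizontal axis) of each of the 43 assays called lower at E15.5, with its standard error (black), its value with own-set controls (green squares), with the miRNA median as reference (purple crosses) and at E16.5 (orange triangles). The values run from -6.72 for miR-98 to -1.05 for miR-382, and every symbol lies below 0.

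The counts of calls in the larger families are read against the 12.6% of all tested assays that fell, and most lay near or below it. Of 18 tested assays of the polycistronic miR-17 cluster and its paralogs, known for driving cell division, 1 fell (miR-93, -1.17, SE 0.34), all 18 lay below 0 and the median was -0.84. Of 10 assays of the miR-15 family, regulators of the cell cycle, 1 fell (miR-424, -1.66, SE 0.48). In that family 7 assays lay below 0 and the median was -0.64. Its highest change was that of miR-322, at 0.28, or -0.11 with own-set controls. The miR-30 family had 8 of 8 assays below 0 with a median of -1.05 and 0 called, and with own-set controls miR-30e-3p passed (limma adjusted p = 0.0498). The miR-29 family, the miR-181 family and the miR-23/27/24 clusters had 0 called of 3, 3 and 7. Of 7 assays of the miR-99/100 and miR-125 clusters 2 fell, miR-99b (-1.23, SE 0.33) and miR-125a-5p (-1.09, SE 0.33). That is 28.6% of a short list. These 2 lie with let-7e on chromosome 17 within a single cluster, whose 3 major arms all fell. miR-99a, in the cluster of let-7c-1 on chromosome 16, changed by -0.61 (limma adjusted p = 0.252).

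With own-set controls the calls for miR-93, miR-424, miR-99b and miR-125a-5p did not hold (limma adjusted p = 0.0972, 0.105, 0.0599 and 0.092). In the imprinted Dlk1-Dio3 cluster on chromosome 12, 6 of 56 tested assays fell (10.7%, near the share of all tested), with a median of -0.74. With own-set controls 1 passed, miR-433 (-0.93, limma adjusted p = 0.0287), and with the sample number as a block 0 passed (miR-433 at 0.0856).

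**Figure D5:**
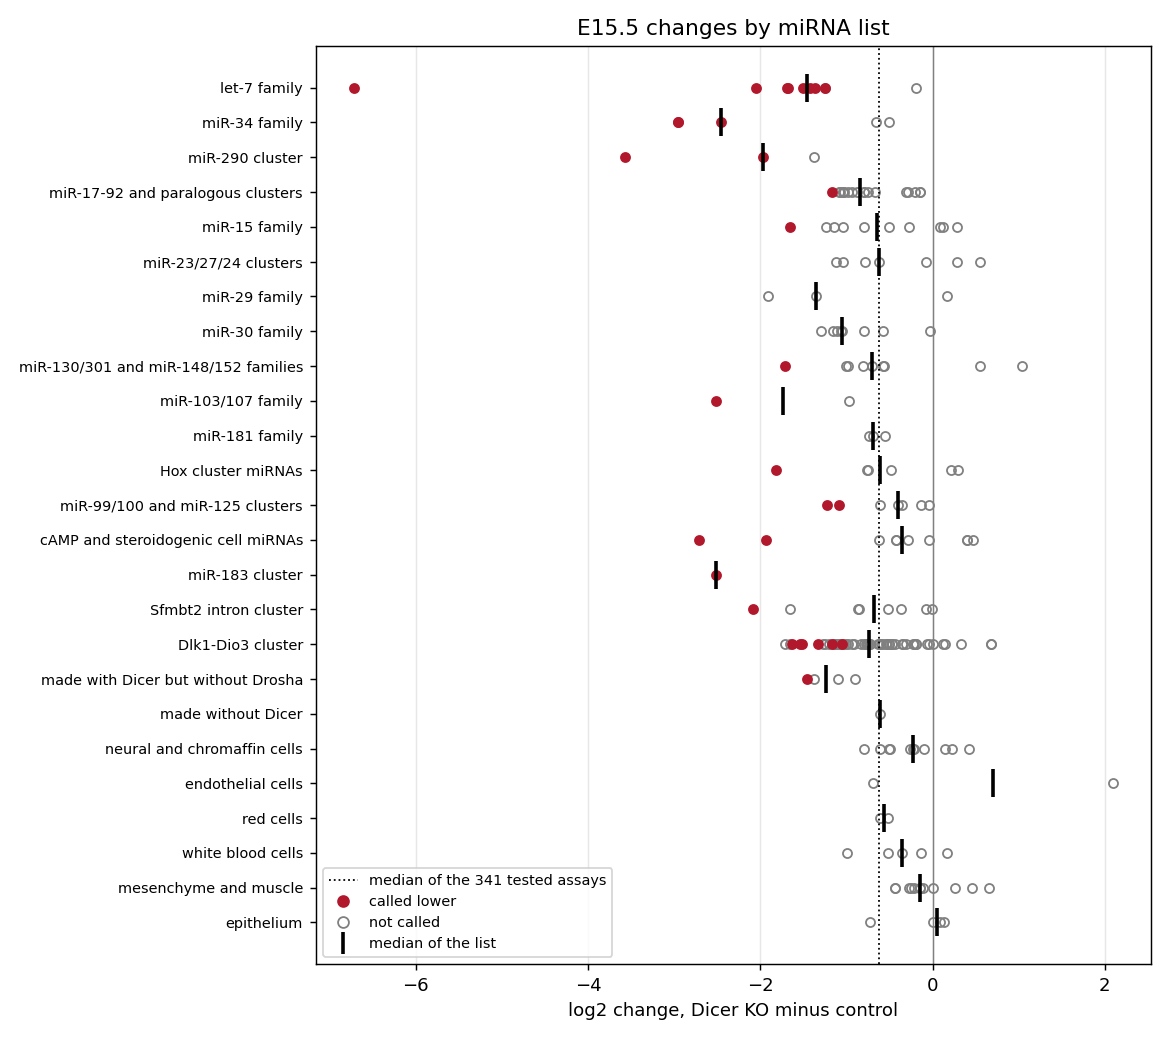
Log2 change (KO minus WT, horizontal axis) of every tested assay of each list, red where called lower and open grey where not, with the median of the list as a black bar and the median of all tested assays, -0.62, as a dotted line. The let-7, miR-34 and miR-290 lists hold 8 of 10, 3 of 5 and 2 of 3 called assays, against 12.6% of all tested, and the marker lists of other cell types hold 0. In each of these 3 lists a called assay passed the detection rule through WT samples only.

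Grouped by how they are made, hairpins that need Dicer but not Drosha had a median change of -1.24, against -0.62 over all tested assays. Of their 4 tested assays 1 fell, against 12.6% of all tested, too few to set the list apart. Among these 4, 1 passed the detection rule through WT samples only and was bound to look lower, so the median supports nothing about the list. The called assay was miR-484 (-1.46, SE 0.42, limma adjusted p = 0.0319, or 0.118 with own-set controls). miR-320 changed by -1.38 (limma adjusted p = 0.0722) and miR-702 by -0.90 (limma adjusted p = 0.316). miR-877#, from a mirtron, changed by -1.10 (limma adjusted p = 0.0706) and by -1.50 with own-set controls, where it passed (limma adjusted p = 0.0287). miR-451, which needs no Dicer, had -4.77, -4.91, -4.57 and -4.74 in WT and -4.16, -4.80, -6.39 and -6.08 in KO. KO samples 1 and 2 lay within or above the range of the controls and KO samples 3 and 4 below them. The change was -0.61 (SE 0.46, limma adjusted p = 0.381), against a median of -0.62 over all tested assays. With own-set controls miR-451 changed by -0.22, against a median of -0.48 over all tested assays. As miR-451 marks red cells, its level also follows their number, and neither part was tested.

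Markers of cells outside the target of Sf1-Cre gave no call. With 12.6% of all tested assays called, a single list this short would hold few calls or none at that share. Whether the lists together held fewer calls than that share was not tested. Neural and chromaffin cells had 0 called of 11 tested assays, with a median change of -0.23 and a summed level (log2 of the sum over assays) between -0.25 and 0.81 in WT and -0.61 and 0.64 in KO. Mesenchyme and muscle had 0 of 12 and a median of -0.14, with sums of 0.18 to 0.98 and -0.34 to 0.95. White blood cells had 0 of 5 and a median of -0.35, with sums of -1.63 to -1.37 and -2.49 to -0.87. Red cells had 0 of 2, with sums of -3.37 to -2.06 and -3.72 to -2.75. Endothelial cells had 0 of 2, with sums of 1.26 to 2.12 and 0.33 to 1.85. Epithelium had 0 of 4, with sums of -7.65 to -5.83 and -8.29 to -6.43. Of these 4, 3 are members. The other, miR-141#, gave Ct 22.00 and 22.66 in the no-template wells, so its missing call says nothing.

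In each of these lists the range in KO overlapped that in WT. miR-375, found in chromaffin and other endocrine cells, changed by -0.10 (SE 0.34), miR-126 of endothelium by -0.69 (SE 0.48), miR-142-3p of white blood cells by -0.13 (SE 0.47) and miR-145 of smooth muscle by -0.43 (SE 0.39). With own-set controls these were 0.30, -0.29, 0.27 and -0.04. miR-375 and miR-142-3p were picked outside the rule of smallest p in a list. For neural and chromaffin cells that rule named miR-128a (-0.80), miR-7 (-0.61) and miR-9 (-0.49), with the common controls. For white blood cells it named miR-155 (-0.99), miR-146a (-0.52) and miR-150 (-0.35). With own-set controls the medians of these lists were 0.02 and 0.04. The second endothelial assay, miR-126#, changed by 2.09. Of the markers listed, miR-153, miR-219, miR-144 and miR-200a had no tested assay. What share of the called changes comes from a shift in cell types was not tested.

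No assay rose in the main fit. With the miRNA median as reference the human-named miR-214 assay, miR-212 and miR-704 were called higher. In the main fit the positive changes with the smallest p were those of miR-2146, miR-690, miR-685, miR-712 and miR-2134, and 4 of these 5 are in set 2. miR-2146 had -1.29, -1.42, -2.56 and -2.08 in WT and -1.25, -0.72, -1.28 and -1.03 in KO, the only assay with every KO sample above every WT sample. Its change of 0.77 (SE 0.36, limma adjusted p = 0.144) came to 0.38 with own-set controls. miR-690 changed by 0.86 (limma adjusted p = 0.208), or 0.46 with own-set controls. miR-685 changed by 1.64 because WT sample 3 was at the limit of -10.17 while the other 7 samples lay between -5.43 and -4.34. miR-126# likewise changed by 2.09 on a single undetected WT sample. miR-2134 gave a Ct of 23.38 in a no-template well, against 11.01 to 13.76 in the samples.

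WT and KO samples sharing a number tended to deviate alike at E15.5, with correlations across assays of 0.33, 0.23, 0.15 and 0.11. At E16.5 they did not, with -0.17, -0.05, 0.10 and -0.10, each below the best correlation with another number. The median KO minus WT difference within the pairs was -0.33, 0.16, -1.46 and -1.12 for numbers 1 to 4. More assays lay lower in KO than higher in pairs 1, 3 and 4, with the widest shift in pairs 3 and 4, and in pair 2 the median was above 0. With the number as a block, set at both ages, 19 assays passed, 18 of them among the 43. Both the block and the own-set controls kept the calls for 17: let-7d, miR-98, miR-34b-3p, miR-34c, miR-34c#, miR-292-3p, miR-293, miR-10a, miR-21, miR-107, miR-182, miR-193#, miR-202, miR-365, miR-501#, miR-672 and miR-674. The 7 assays called without KO samples 3 and 4 were miR-98, miR-34b-3p, miR-34c, miR-365, miR-672, miR-202 and miR-293. In these lists miR-98, miR-34c#, miR-293, miR-202 and miR-674 passed the detection rule through WT samples only. They were bound to look lower, so keeping their calls supports nothing.

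At E16.5, 41 of the 43 were also called lower, where 42.2% of all tested assays were. The other two were miR-125a-5p (-0.79 at E16.5, limma adjusted p = 0.0635) and miR-369-5p (-1.01, limma adjusted p = 0.0923). The change at E16.5 minus that at E15.5 passed the threshold for 0 assays (0% called; 13 at an unadjusted p under 0.05 by limma). The smallest p was that of miR-202, which changed by -2.71 at E15.5 and -4.89 at E16.5 (unadjusted p = 0.00308). miR-292-3p changed by -1.97 and -4.32 (unadjusted p = 0.0107). miR-107, at -2.51 and -2.50, was among those with nearly the same change at both ages.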

How the data were processed

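The deposited table holds Ct values without normalization by the authors, per the file headers. A second deposited table holds the authors' log2 values per age, which run opposite to its header and were not used for results. Instrument settings were not given in these sources. RNA came from an RNAqueous Micro kit, primed with Megaplex primers for TaqMan OpenArray panels, per the labels' protocols. Levels, with Ct above 28 or missing set to 28, were fitted with limma 3.58.1 in R 4.3.3 to all 16 samples as 4 group means, over the assays detected in at least 3 samples of a group. P-values were adjusted by Benjamini-Hochberg over all of them, and summary values of samples used exact permutation tests. The median SE of a log2 change was 0.46, and 4 samples per group limit the precision. Titles of the samples numbered 1 carry an unexplained R. The fit was tested on simulated data with independent noise per assay. These data held no shift of whole samples, no offset between sets and no detection limit, so the test does not cover them. The sub-array of each well was read from the row order and checked: subtracting the U6 well of that sub-array gave the authors' values for 272 assays to within 0.001. The 2 sets were told apart by their control Ct, after seeing the data, and what they are is not given.

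Members, lists and named assays were chosen with earlier results of these data known. Named were the 12 largest falls, the 5 smallest p among positive changes where none rose, every tested let-7, miR-34 and miR-290 assay, up to 3 of each other list by smallest p, assays detected in all 4 samples of a group and at most 1 of the other, miR-451 and the controls. Sequence neighbours, second arms and second assays were named after their values were seen. So were miR-501#, miR-135b, miR-2146 with own-set controls, the assays called higher on the miRNA median, and the assays robust to the alternatives. The cell type markers miR-375 and miR-142-3p were named outside the rule. The labels do not tie sample numbers to litters. Numbers were taken as pairs at E15.5 because each of the 4 correlations of same-numbered samples exceeded 0.1, which did not hold at E16.5. The fit with the number as a block nevertheless paired same-numbered samples at both ages.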

Additional observations from a re-analysis of the deposited data

Results flagged for a closer look

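Within groups of 4 samples, 181 groups of named values were searched for a sample far from the other 3, and 7 had one, fewer than the 1 in 20 that chance gives. miR-193# was high in KO sample 2, at -6.98 against -9.18 to -9.00. WT sample 3 was low for miR-685, at -10.17 against -5.43 to -4.51, and high for miR-30a-5p, at -1.18 against -1.68 to -1.64. WT sample 4 was low for miR-295, at -11.24 against -9.13 to -8.88, for miR-213, at -9.98 against -8.31 to -8.07, and for miR-126#, at -11.24 against -1.75 to -1.61. The control mean Ct was high in WT sample 3, at 17.83 against 16.55 to 16.76.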

How the results depend on the processing

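The count of 43 lower assays moved by more than 1.5 times with the miRNA median as reference (17 lower, 3 higher), own-set controls (27), U6 alone (67), the 8 E15.5 samples alone (20), the sample number as a replicate block (19) and without both samples numbered 1 (27). It did so too in settings chosen after seeing the data: 7 without KO samples 3 and 4, 11 without WT samples 3 and 4, and 20 lower with 2 higher on the miRNA median of the own set. Leaving out 1 sample gave 14 to 112 lower and 0 to 1 higher, with 14 without KO sample 3, 17 without KO sample 4, 20 without WT sample 3, 24 without WT sample 4 and 112 without KO sample 2. A Ct limit of 30 and undetected wells left missing each gave 1 higher. The difference in median level was 0.14 on the miRNA median, which takes out a common shift, and -0.82 on U6 alone (exact permutation p = 0.0286). Without 1 sample it ran from -0.92 to -0.43. The other causes were not tested. Over 25 alternatives the named assays gave 2120 values, of which 1837 kept their side of the threshold, most of the rest lost a call, 60 gained one and 0 changed direction while called. The difference between ages had 0 called in every alternative that could fit it. Levels near Ct 28 have no order.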
